A study of Arabidopsis thaliana with 8 samples.

Results

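The 8 libraries were poly(A) RNA-seq of Arabidopsis thaliana rosettes, accession Col-0, and were sorted within each genotype by RRTF1 (AT4G34410), giving 4 libraries of 8, chosen by this transcript's own level. Plants were 17 days old, had not bolted, and were grown at 22 °C with 16 hours of light and 8 hours of dark. They were harvested 6 hours after lights on, and each library held the pooled shoots of 5 plants. There were 4 libraries of the double mutant hta9 hta11, in which HTA9 and HTA11, genes of the histone variant H2A.Z, are mutated (the kind of allele is not stated in the labels), and 4 of the wild type. No treatment is named in the labels. The rule took the 2 libraries of each genotype with the highest RRTF1 value in CPM (count over column total). These were hta9 hta11 libraries 1 and 4 and wild-type libraries 1 and 3. Their RRTF1 values placed them there, so these 4 libraries and the other 4 are not groups of the study. They were not averaged or tested against each other, and what follows on them is a description of each library. All tests are of hta9 hta11 against wild type, the labelled groups.

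RRTF1 encodes an AP2/ERF transcription factor, also known as ERF109, that responds within minutes to redox changes, wounding and strong light. It belongs to a wave of early genes that plants switch on after touch, cutting, cold or attack, many of which encode ERF, DREB, zinc finger, WRKY and MYB factors, calcium-binding proteins and repressors of jasmonate signalling. Jasmonate is the wound hormone, and JAZ proteins hold back its transcription factors until the hormone triggers their breakdown. Transcripts of this wave are known to rise and decay quickly.

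RRTF1 (chromosome 4, 16451876 to 16453260, TAIR10.1) had 8.53 and 5.76 CPM in hta9 hta11 libraries 1 and 4, and 1.95 and 2.25 CPM in hta9 hta11 libraries 2 and 3. In the wild type it had 21.7 CPM in each of libraries 1 and 3, and 12 and 2.90 CPM in libraries 2 and 4. The values rested on 71 to 829 counts per library, and exact Poisson 95% intervals, which cover counting error only, were 5.01 to 6.60 CPM for hta9 hta11 library 4 and 1.75 to 2.83 CPM for library 3, the pair beside the dividing line in the mutant. In the wild type the pair beside the line was library 3, with an interval of 20.2 to 23.2 CPM, and library 2, with 11 to 13.1 CPM. Wild-type library 2 thus lay among the libraries with less RRTF1 of its genotype while holding more than any hta9 hta11 library. The antisense transcript annotated within RRTF1, AT4G08985, had no count in any library.

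**Figure D1:**
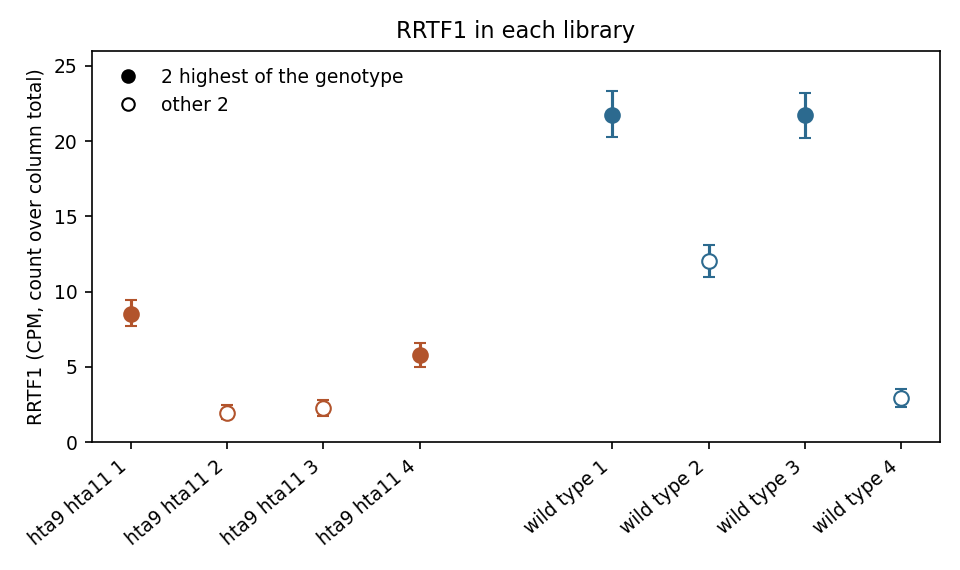
RRTF1 in CPM (vertical axis) in each library, hta9 hta11 at left and wild type at right, with exact Poisson 95% intervals as bars and filled points for the 2 highest libraries of each genotype. The 4 hta9 hta11 libraries run from 1.95 to 8.53 CPM and the 4 wild-type libraries from 2.90 to 21.7 CPM.

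RRTF1 averaged 4.62 ± 3.13 CPM in hta9 hta11 and 14.6 ± 9.03 CPM in the wild type (SD, n = 4 each). In edgeR's quasi-likelihood test the log2 fold change between genotypes was -1.70, with SE 0.60 and an adjusted p = 0.167, which did not pass, and the 2 genotypes overlapped. The highest library held 4.38 times the lowest in hta9 hta11 and 7.48 times the lowest in the wild type. The biological coefficient of variation estimated by edgeR was 0.576 for RRTF1, against a median of 0.121 over the 20213 other genes tested.

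Library totals ran from 31611735 to 47467130 counts and 20214 genes passed the count filter. HTA9 had 60.5, 15.5, 34.1 and 16.9 CPM in hta9 hta11 libraries 1 to 4 against 83.8 to 99.1 CPM in the wild type, and HTA11 had 26, 3.11, 14.4 and 3.68 CPM in hta9 hta11 against 39.2 to 51.6 CPM in the wild type. In edgeR HTA9 fell (log2 fold change -1.60, adjusted p = 0.0457) and HTA11 stood at -1.93 (adjusted p = 0.0924). Of the 8 fits that each leave out 1 library, HTA9 kept its call only without hta9 hta11 library 1, where HTA11 passed too. Among the mutant libraries both genes were highest in libraries 1 and 3, a different pair from that of RRTF1. The 4 rosette leaf markers summed to 27360.2 to 29341.3 CPM in hta9 hta11 and 28195.2 to 31463.2 CPM in the wild type. Of 5 root markers, MRN1 had no count, PRP3 and PHT1;1 stayed under 1 CPM, NRT2.1 ran from 1.53 to 2.21 CPM in hta9 hta11 and 1.21 to 1.96 CPM in the wild type, and the sum of 65.0 to 98.8 CPM in hta9 hta11 and 68.8 to 114.9 CPM in the wild type was mostly PYK10. The 4 floral markers summed to 6.20 to 12 CPM in hta9 hta11 and 1.99 to 2.26 CPM in the wild type. Among them AP3, PI and SEP3 rose in the mutant, and AG did not (log2 fold change -0.49, adjusted p = 0.301 in edgeR). In bulk tissue, fewer cells of a type and less RNA per cell cannot be told apart.

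A gene was counted as sharing the library pattern of RRTF1 when hta9 hta11 libraries 1 and 4 both lay above libraries 2 and 3, and wild-type libraries 1 and 3 both lay above libraries 2 and 4. Of the 20213 other genes tested, 2527 did so, which is 12.5%. A further 4067 genes, 20.1%, had the opposite pattern, with the same libraries lowest in both genotypes. On TMM-scaled CPM the split was more even, with 3332 genes (16.5%) sharing the pattern and 3347 (16.6%) opposing it. The pattern held in hta9 hta11 alone for 24.6% of genes taken whatever the wild type did, and in the wild type for 20.9%. The opposite held in hta9 hta11 for 31.2% and in the wild type for 30.1%. The full order of all 4 libraries matched RRTF1 in both genotypes for 1.5%. Another 174 genes (0.861%) followed RRTF1 in hta9 hta11 and opposed it in the wild type, and 171 (0.846%) did the reverse. With each genotype's mean removed, principal component 1 held 40.3% of the remaining variance and placed the libraries in the same way, at 27.62 and 10.54 for hta9 hta11 libraries 1 and 4, -16.06 and -22.11 for libraries 2 and 3, 25.76 and 15.15 for wild-type libraries 1 and 3, and -12.83 and -28.08 for libraries 2 and 4.

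Transcript length moved with these libraries. Among the 20111 genes with an annotated length, those sharing the pattern had a median spliced length of 1153 bases and those opposing it 2674 bases, against 1729 bases for all. In the shortest length class (up to 1225 bases) 28.2% of genes shared the pattern and 1.87% opposed it. In the longest class (2317 bases or more) 1.43% shared it and 51.8% opposed it. The slope of a gene's deviation on log2 length was -0.122 and -0.046 in hta9 hta11 libraries 1 and 4, 0.092 and 0.076 in libraries 2 and 3, -0.155 and -0.041 in wild-type libraries 1 and 3, and 0.096 and 0.099 in libraries 2 and 4. Within each genotype, the 2 libraries with more RRTF1 thus held relatively more counts of short transcripts and fewer of long ones. UPL1, a HECT ubiquitin ligase with a transcript of 11404 bases, had 52.9 and 67.5 CPM in hta9 hta11 libraries 1 and 4 and 132.6 and 122.3 CPM in libraries 2 and 3. Wild-type values of it were 47.1 and 58.3 CPM in libraries 1 and 3 and 121.9 and 101.1 CPM in libraries 2 and 4.

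**Figure D2:**
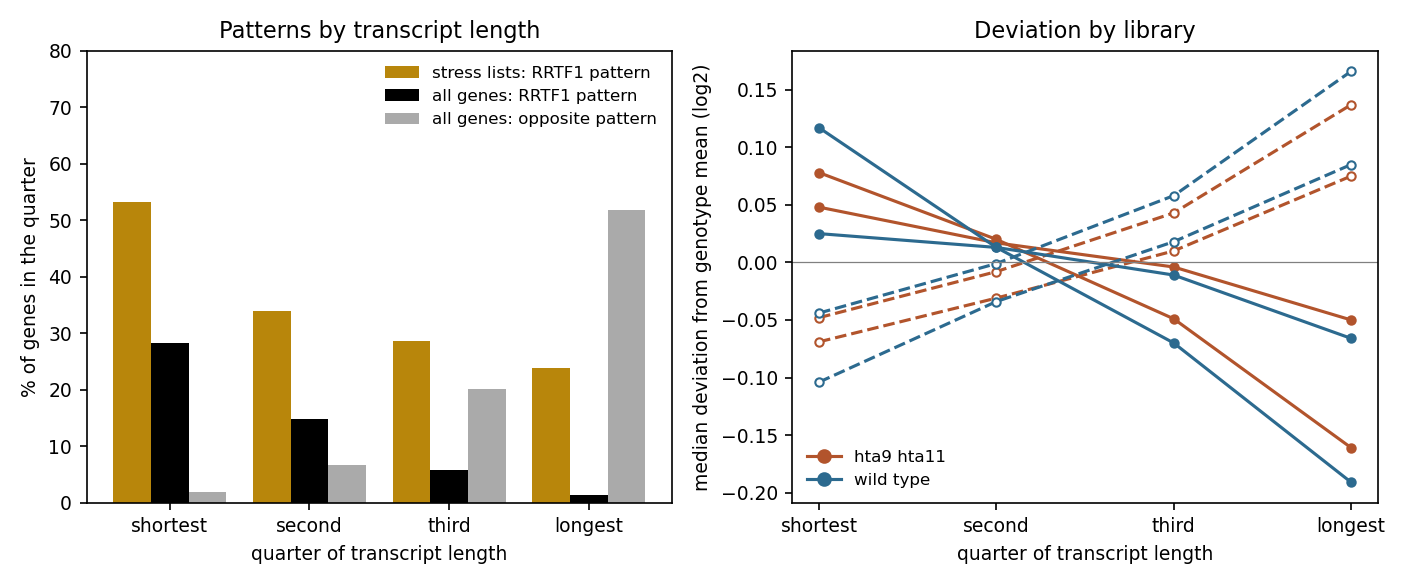
Left, percent of stress genes sharing, and of all genes sharing or opposing, the library pattern of RRTF1 (vertical axis) in 4 classes of transcript length, shortest to longest; right, the median deviation from the genotype mean (log2) of each class in each library, with orange for hta9 hta11, blue for wild type, and filled points and solid lines for the 2 libraries of each genotype with most RRTF1. In the longest class the median deviation is -0.161 and -0.050 in hta9 hta11 libraries 1 and 4 and 0.137 and 0.075 in libraries 2 and 3.

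Stress genes shared the pattern in larger proportion than all genes did, in each length class. Of 157 genes tested on 12 stress lists, 58 (36.9%) shared it and 1 opposed it, the heat shock list's BAG6, and the 58 had a median length of 1366 bases, close to the 1385 bases of RRTF1. By length class, from shortest to longest, 53.3%, 33.9%, 28.6% and 23.8% of stress genes shared the pattern, against 28.2%, 14.8%, 5.81% and 1.43% of all genes. After the median deviation of genes of like length was removed from each library, 55 stress genes (35.0%) shared the pattern, against 11.5% of all genes. Over all genes the same step left 2201 opposing RRTF1 (10.9%), against 4067 before it. On TMM-scaled CPM 65 stress genes (41.4%) shared the pattern. RRTF1 itself stood at 1.00 and 0.48 in hta9 hta11 libraries 1 and 4 and -0.83 and -0.65 in libraries 2 and 3 on this adjusted log2 scale. In the wild type it stood at 0.85 and 0.86 in libraries 1 and 3 and 0.07 and -1.77 in libraries 2 and 4. The lists were chosen with earlier results of these data known, and no test was made of their shares.

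**Figure D3:**
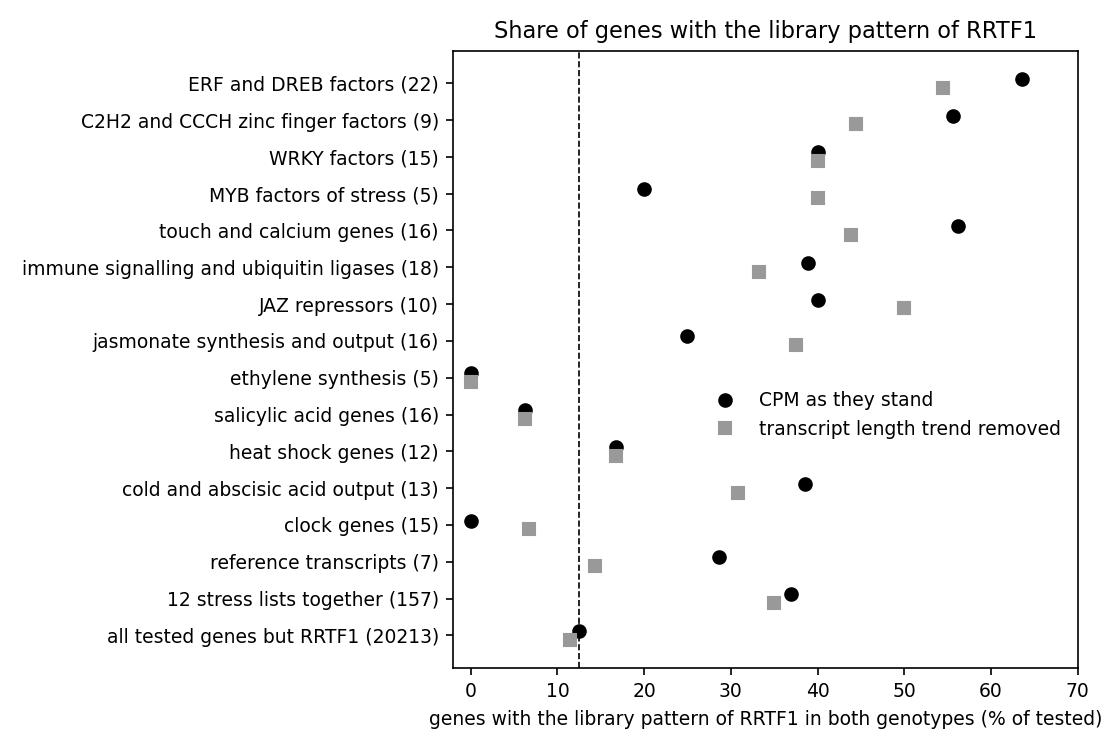
Percent of tested genes of each list (number tested in parentheses) that share the library pattern of RRTF1 in both genotypes, from CPM as they stand (circles) and after the trend with transcript length was removed (squares). The dashed line marks the 12.5% of all tested genes; ERF and DREB factors stand at 63.6%, clock genes at 0% and reference transcripts at 28.6%.

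Among the transcription factors, the ERF and DREB family stood highest, with 14 of 22 tested genes (63.6%) sharing the pattern. DDF1, a DREB factor of the group that includes the cold regulators CBF1 to CBF3, had 2.87 and 1.78 CPM in hta9 hta11 libraries 1 and 4 against 0.285 and 0.348 CPM in libraries 2 and 3. In the wild type DDF1 had 5.93 and 7.09 CPM in libraries 1 and 3 against 4.01 and 1.09 CPM in libraries 2 and 4. For DDF1, hta9 hta11 libraries 2 and 3 lay below all 6 others. CEJ1, a small repressor of the DREB family, had 13.6 and 11.6 CPM against 5.81 and 4.87 CPM in the same mutant libraries, and 16.5 and 24.7 CPM against 12.5 and 3.87 CPM in the wild type. Wild-type library 4 was the lowest of its genotype for DDF1, CEJ1 and RRTF1 alike. ORA47, an activator of jasmonate synthesis genes, had 10.9 and 10.4 CPM in hta9 hta11 libraries 1 and 4 and 5.66 and 1.61 CPM in libraries 2 and 3, and in the wild type 8.44 and 5.65 CPM in libraries 1 and 3 and 5.44 and 1.97 CPM in libraries 2 and 4, with libraries 2 and 3 side by side. ERF13 was also named by size, with a range of 2.31 to 6.94 CPM in hta9 hta11 and 1.72 to 8.06 CPM in the wild type. The CBF genes were scarce, under 1 CPM in every library, and of these CBF2 shared the pattern.

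Of 9 zinc finger genes tested, 5 shared the pattern. ZAT10, a C2H2 repressor of stress genes, had 27.6 and 22.0 CPM in hta9 hta11 libraries 1 and 4 and 17.9 and 7.53 CPM in libraries 2 and 3. Wild-type ZAT10 values were 18 and 21.3 CPM in libraries 1 and 3 and 14.6 and 9.84 CPM in libraries 2 and 4. ZAT12, a related regulator of oxidative stress genes, ranged from 3.23 to 9.99 CPM in hta9 hta11 and from 4.41 to 7.33 CPM in the wild type. AZF2 and SZF1 varied less, with SZF1, a CCCH protein, at 33.8 to 59.5 CPM in hta9 hta11 and 59.5 to 79.7 CPM in the wild type. Of 15 WRKY factors 6 shared the pattern, among them WRKY40 and WRKY18, which act together as repressors in immunity. WRKY40 had 33.0 and 24.0 CPM in hta9 hta11 libraries 1 and 4 and 13.1 and 13.3 CPM in libraries 2 and 3, and in the wild type 41.7 and 56.8 CPM in libraries 1 and 3 and 28.5 and 12.9 CPM in libraries 2 and 4. WRKY18 ran from 50.8 to 100.2 CPM in hta9 hta11 and from 71.9 to 165.2 CPM in the wild type. WRKY48 ran from 6.70 to 10.6 CPM in hta9 hta11 and from 5.15 to 12.9 CPM in the wild type. WRKY53, a factor of leaf senescence, had a narrower span, from 12.1 to 16.5 CPM in hta9 hta11 and from 13.0 to 17.8 CPM in the wild type. Of 5 MYB factors only MYB15, a regulator of lignin and cold genes, shared the pattern, with 0.986 to 2.84 CPM in hta9 hta11 and 1.09 to 5.76 CPM in the wild type.

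**Figure D4:**
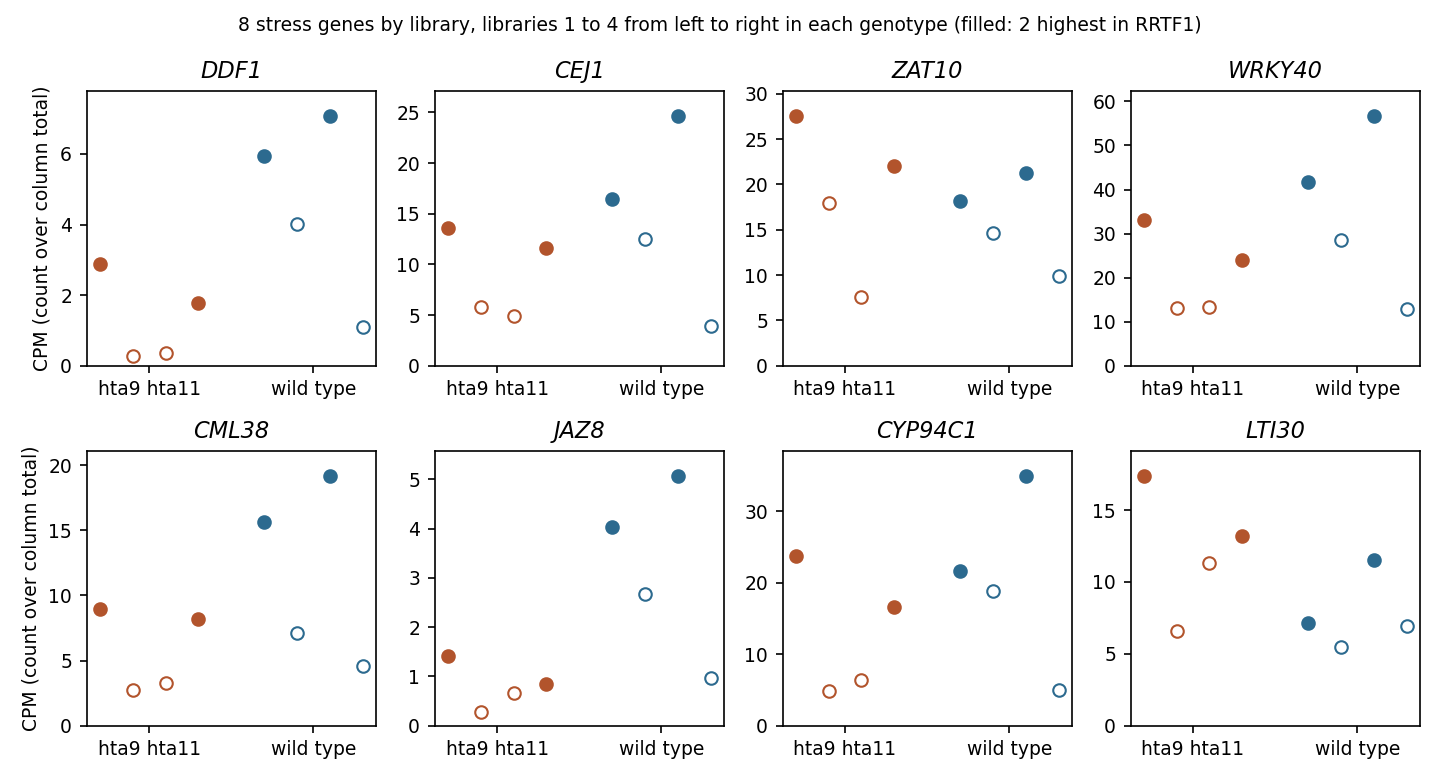
CPM (vertical axis, from 0) of 8 stress genes in each library, with hta9 hta11 at left and wild type at right and filled points for the 2 libraries of each genotype with most RRTF1. The 8 genes were picked among those sharing the library pattern of RRTF1, so their filled points lie above the open points of the same genotype. They do so most narrowly for LTI30 in the wild type, where library 1 had 7.17 CPM and library 4 had 6.96 CPM.

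Genes of touch and calcium signalling followed the same libraries in 9 of 16 cases. CML38, a calmodulin-like calcium sensor, had 8.97 and 8.21 CPM in hta9 hta11 libraries 1 and 4 against 2.70 and 3.26 CPM in libraries 2 and 3. Wild-type values of CML38 were 15.6 and 19.2 CPM in libraries 1 and 3 against 7.14 and 4.56 CPM in libraries 2 and 4. AT3G01830, for which the reference gives no name, spanned 2.6 to 6.17 CPM in hta9 hta11 and 1.81 to 16.2 CPM in the wild type. The calmodulin genes CAM2 and CML9 kept the order over a smaller span, CAM2 with 35.8 to 65.8 CPM in hta9 hta11 and 39.8 to 72.1 CPM in the wild type. XTH22, the touch gene TCH4 of cell wall remodelling, did not share it, with 17.7 to 46.1 CPM in hta9 hta11 and its highest value, 99.8 CPM, in wild-type library 4. Among 18 genes of immune signalling, 7 shared the pattern. They included SYP122, a syntaxin of secretion at the plasma membrane (20.7 to 40.4 CPM in hta9 hta11 and 30.5 to 67.7 CPM in the wild type), AP2C1, a phosphatase that inactivates stress MAP kinases, PUB23, a ubiquitin ligase that limits immune responses, and the kinase MKK9.

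Jasmonate genes varied widely between libraries. The median ratio of the highest to the lowest library, on CPM with 0.5 added, was 2.38 in hta9 hta11 and 3.27 in the wild type over 16 genes of jasmonate synthesis and output, against 1.25 and 1.28 over all genes. CYP94C1, which oxidises the active hormone, had 23.7 and 16.6 CPM in hta9 hta11 libraries 1 and 4 and 4.85 and 6.45 CPM in libraries 2 and 3. In the wild type CYP94C1 had 21.6 and 35.0 CPM in libraries 1 and 3 and 18.9 and 4.93 CPM in libraries 2 and 4. The synthesis genes AOC3 and LOX4 and the oxidase gene CYP94B3 were the other members with the pattern, 4 of 16 in all. Of the 16, 0 opposed it in both genotypes. LOX2, VSP1 and VSP2 did not share the pattern and were highest in hta9 hta11 library 3 and wild-type library 4. They were named after their values were seen. VSP2 had 107.3, 96.0, 255.1 and 159.0 CPM in hta9 hta11 libraries 1 to 4. Its wild-type values were 61.6, 87.0, 129.8 and 317.7 CPM in libraries 1 to 4. Taken whatever the other genotype did, 11 of the 16 followed RRTF1 in hta9 hta11, against 24.6% of all genes. In the wild type 4 did, the same 4 as in both genotypes, against 20.9% of all genes. Of 10 JAZ repressors 4 shared the pattern. JAZ8, a repressor resistant to hormone-induced breakdown, had 1.41 and 0.851 CPM in hta9 hta11 libraries 1 and 4 against 0.285 and 0.664 CPM in libraries 2 and 3, and in the wild type 4.03 and 5.08 CPM in libraries 1 and 3 against 2.68 and 0.968 CPM in libraries 2 and 4. JAZ1, JAZ5 and JAZ7 were the others, with JAZ1 at 26.5 to 53.2 CPM in hta9 hta11 and 24.7 to 83.1 CPM in the wild type.

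Cold and abscisic acid output genes shared the pattern in 5 of 13 cases, and 4 of these named by size encode dehydrins or a related chloroplast protectant. ERD10 had 369.6 and 237.6 CPM in hta9 hta11 libraries 1 and 4 and 133.8 and 180.8 CPM in libraries 2 and 3, and in the wild type 328.7 and 352.3 CPM in libraries 1 and 3 and 235.2 and 147.1 CPM in libraries 2 and 4. COR47 and LTI30, likewise dehydrins, and COR15B had smaller spans. Of 12 heat shock genes tested, only the repressors HSFB1 and HSFB2A shared the pattern, and HSP70 and HSP101 did not. Of 16 salicylic acid genes only EDS1, a lipase-like immune regulator, did, at 42.2 to 51.6 CPM in hta9 hta11 and 44.3 to 66.6 CPM in the wild type. PR1, the standard output gene of salicylic acid, had 14.7, 21.6, 3.8 and 2.31 CPM in hta9 hta11 libraries 1 to 4 and 3.9, 2.51, 11.4 and 0.781 CPM in wild-type libraries 1 to 4, and was named after its values were seen. None of 5 ethylene synthesis genes shared the pattern.

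Of 15 clock genes tested, none shared the pattern and 5 opposed it, PRR7, PRR3, GI, ELF3 and LNK1, which were named after their values were seen. Over all genes 20.1% opposed it, and 51.8% in the longest length class; the clock genes had a median length of 2667 bases. GI, an evening clock gene, had 13.7 and 19.0 CPM in hta9 hta11 libraries 1 and 4 and 26.8 and 24.8 CPM in libraries 2 and 3. Wild-type values of GI were 19.0 and 18.9 CPM in libraries 1 and 3 and 28.2 and 28.6 CPM in libraries 2 and 4. TOC1, which has its peak in the evening, ran from 129.2 to 160.3 CPM in hta9 hta11 and from 144.1 to 177.4 CPM in the wild type and matched neither pattern. With the trend of transcript length removed, 2 of the 15 clock genes (13.3%) opposed RRTF1 and 1 (6.67%) followed it, near the 10.9% and 11.5% of all genes. Of 7 reference transcripts 2 shared the pattern of RRTF1, of 4 rosette leaf markers 2, of 4 exordium genes 1, and of the root and floral markers tested 0.

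Beyond the lists, the genes with the pattern and the widest span included RAS1, with 6.28 and 3.43 CPM in hta9 hta11 libraries 1 and 4 against 1.12 and 0.981 CPM in libraries 2 and 3. CYP82G1, a cytochrome P450 that makes volatile homoterpenes, had 8.17 and 8.21 CPM against 1.53 and 2.18 CPM in the same libraries. In the wild type CYP82G1 had 5.44 and 12.2 CPM in libraries 1 and 3 and 4.09 and 1.37 CPM in libraries 2 and 4. The others were the cell wall enzyme gene XTH18, the kinase gene MAPKKK14, the methyltransferase gene FAMT, the glutaredoxin gene GRX480, and the loci AT1G22810, AT1G15010, AT1G56660, AT4G27654, AT2G22880 and AT5G12340. Of the 8 widest opposing genes outside the lists, 4 lie in the plastid genome. ATCG00760 had 10.4 and 15.3 CPM in hta9 hta11 libraries 1 and 4 and 35.2 and 33.5 CPM in libraries 2 and 3. Plastid genes as a whole, at 0.564% and 0.509% of counts in hta9 hta11 libraries 1 and 4, 0.601% and 0.755% in libraries 2 and 3, 0.583% and 0.469% in wild-type libraries 1 and 3, and 0.629% and 0.421% in libraries 2 and 4, did not hold that order in the wild type.

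The sequences before the start of 3 genes with the pattern are shown as examples that hold different motifs, and were picked for those letters. Each is 250 bases up to the annotated start in RefSeq's TAIR10.1, 5′ to 3′ on the gene's strand. Capitals mark matches, on either strand, to CGCGTT (the rapid stress response element), GCCGCC (the GCC box of ERF proteins), CCGAC (the core of the DREB site), CACGTG (the G-box) and TTGAC (the core of the WRKY site). CGCGTT is in none of the sequences printed.
RRTF1, chr4:16451626-16451875, plus strand: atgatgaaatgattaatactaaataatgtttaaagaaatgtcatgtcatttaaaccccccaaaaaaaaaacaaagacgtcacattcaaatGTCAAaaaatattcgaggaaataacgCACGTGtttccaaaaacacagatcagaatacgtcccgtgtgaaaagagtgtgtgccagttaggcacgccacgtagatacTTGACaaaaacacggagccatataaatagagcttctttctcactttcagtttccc
ZAT10, chr1:9649324-9649573, minus strand: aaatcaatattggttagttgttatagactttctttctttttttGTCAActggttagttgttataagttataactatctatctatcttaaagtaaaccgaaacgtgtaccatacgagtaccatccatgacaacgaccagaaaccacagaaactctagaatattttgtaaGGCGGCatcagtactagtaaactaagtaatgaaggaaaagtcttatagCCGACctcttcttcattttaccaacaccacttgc
LTI30, chr3:18940393-18940642, plus strand: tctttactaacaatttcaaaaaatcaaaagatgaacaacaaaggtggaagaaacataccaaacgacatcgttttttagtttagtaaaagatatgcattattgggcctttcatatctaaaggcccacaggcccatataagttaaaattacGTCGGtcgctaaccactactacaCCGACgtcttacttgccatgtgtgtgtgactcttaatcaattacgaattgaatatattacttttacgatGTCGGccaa

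In RRTF1 the matches were a G-box 134 bases and WRKY cores 160 and 55 bases before the start. Over 27437 nuclear protein-coding genes, CGCGTT occurred in 6 of the 58 stress genes with the pattern (10.3%), in 9 of all 157 stress genes (5.73%) and in 2.59% of all windows. TTGAC occurred in 36 of the 58 (62.1%), in 56.7% of all 157 and in 44.9% of all windows. CCGAC occurred in 12 of the 58 (20.7%), in 15.3% of the 157 and in 12% of all windows. CACGTG occurred in 8 of the 58 (13.8%), in 13.4% of the 157 and in 6.49% of all windows. GCCGCC occurred in 3 of the 58 (5.17%), in 6.37% of the 157 and in 1.87% of all windows. Over all 2487 genes with the pattern and a window, CGCGTT stood at 3.98%, TTGAC at 45.6%, CCGAC at 16.1%, CACGTG at 7.92% and GCCGCC at 2.37%. The shares of the 58 thus lay near those of the 157 for the G-box and the GCC box. DDF1, ORA47, WRKY18 and CYP94C1 shared the pattern and held none of these letters in the window. A match is a string of letters and does not show binding.

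Between the labelled genotypes, 12 stress genes fell in hta9 hta11 and 3 rose, out of 157 tested. Over all 20214 genes, 757 changed with genotype as the one term, 3.74%, of which 504 rose (2.49%) and 253 fell (1.25%). The median log2 fold change of the 157 was -0.21, against 0.00 over all genes. The lists had been chosen with earlier results of these data known, so these shares do not show a fall of stress genes as a class. The 12 that fell were DREB26, WRKY33, WRKY11, MYB73, XTH22, CPK32, MPK3, RBOHD, CYP81F2, JAZ7, WRKY70 and WRKY38, and those that rose were HSP18.2, KIN1 and RD29B. WRKY11, CPK32 and JAZ7 were the members of this set that shared the library pattern of RRTF1. JAZ7, a repressor of jasmonate signalling, had 4.93, 1.35, 2.69 and 4.36 CPM in hta9 hta11 libraries 1 to 4 and 4.81 to 15.3 CPM in the wild type (log2 fold change -1.73, adjusted p = 0.0469 in edgeR), and wild-type library 4, the lowest, overlapped the mutant. CPK32, a calcium-dependent kinase, had 38.1 to 43.4 CPM in hta9 hta11 and 52.3 to 63.6 CPM in the wild type, with no overlap (log2 fold change -0.57, adjusted p = 0.0139 in edgeR). In the 8 fits that each leave out 1 library, JAZ7 kept its call only without hta9 hta11 library 1 or wild-type library 4, and CPK32, MPK3 and MYB73 lost theirs only without hta9 hta11 library 4. RBOHD lost its call in 7 of these fits, and WRKY33, WRKY11, XTH22, CYP81F2, WRKY38 and HSP18.2 in 6 each. WRKY70 lost it without hta9 hta11 library 2 or 4. On other lists the clock genes ELF4 and CHE and the exordium genes EXO and PHI-1 fell, and EXL4 rose. ELF4 and EXO lost their calls without hta9 hta11 library 2 or 4, CHE in 6 of the 8 fits, and the floral marker PI in 5.

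A term for the spread of RRTF1 within each genotype changed how many genes passed. With log2 RRTF1, centred within each genotype, as a further term, 1632 of the 20213 other genes changed, 8.07%, of which 901 were higher and 731 lower in hta9 hta11 (4.46% and 3.62%). All 757 genes called with genotype alone were among them, in the same direction, and made up 46.4% of the 1632. The median biological coefficient of variation was 0.096 with the term and 0.121 without. Of the 157 stress genes 40 fell and 4 rose with the term. Of these 157, 58 (36.9%) followed RRTF1 within both genotypes, against 12.5% of all genes. The term takes up part of the spread of such genes, so the added calls on these lists were in part fixed by that. With the term DDF1 stood at -1.88 on the log2 scale (edgeR adjusted p = 0.00123, SE 0.23), and without it the adjusted p was 0.197 in edgeR. WRKY40 (-0.74, SE 0.11), CML38 (-1.03, SE 0.19), JAZ8 (-1.98, SE 0.21) and CYP94C1 (-0.68, SE 0.14) passed with this term and not with genotype alone. ZAT10, at 0.17 with an adjusted p = 0.673 in edgeR, did not, nor did JAZ1 (-0.27, adjusted p = 0.299 in edgeR). DDF1 and these genes had been named for following RRTF1 within both genotypes, so their smaller SE with the term was in part fixed by that choice. Of the 2527 genes with the pattern, 23 passed with genotype alone and 199 with the term. Over all genes 757 (3.74%) and 1632 (8.07%) passed. The share of pattern genes passing was thus below that of all genes with genotype alone, and near it with the term. This next fit was added after the data were seen: a term for each library's slope on transcript length in place of RRTF1 gave 2343 calls of 20214 (11.6%), 1221 higher (6.04%) and 1122 lower (5.55%), and 33 of the stress genes fell. It held 1538 of the 1632 genes called with the RRTF1 term. With the length term RRTF1 passed, at a log2 fold change of -1.77 (adjusted p = 0.0134 in edgeR), and of the genes just named DDF1, CML38 and JAZ8 passed too. The length slope sets apart the same 2 libraries of each genotype as RRTF1 does, so these passes were in part fixed by that. RRTF1 and length slope move together over the libraries within each genotype, so their parts in the added calls cannot be told apart.

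**Figure D5:**
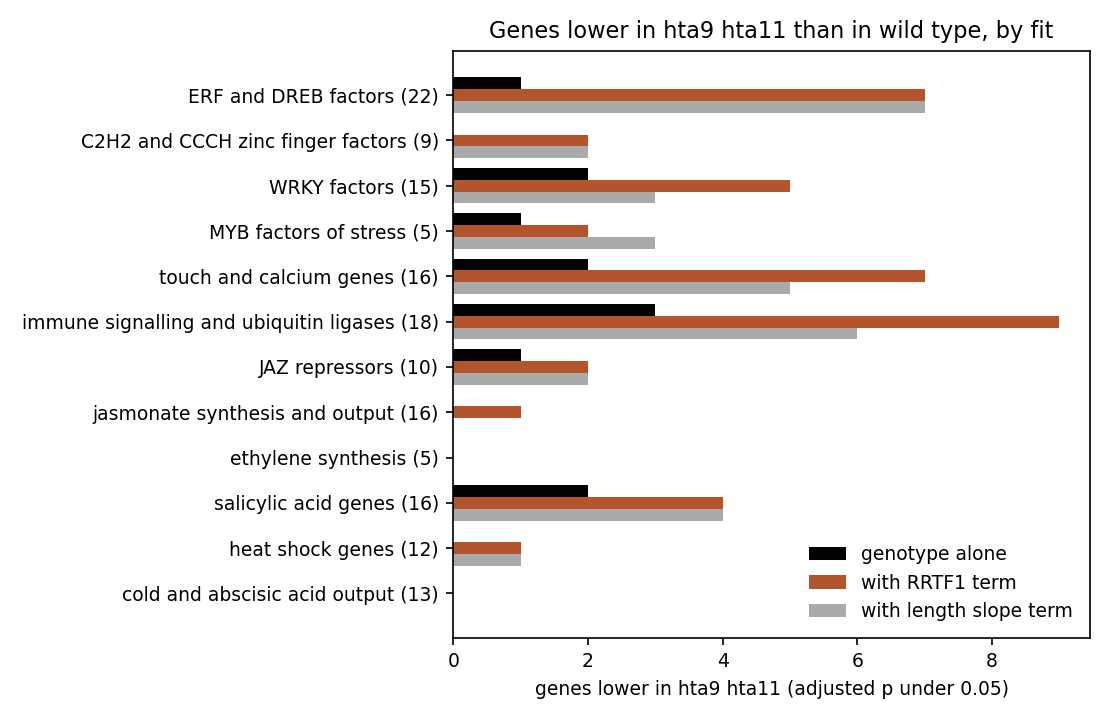
Number of genes lower in hta9 hta11 than in wild type (edgeR, adjusted p under 0.05) on each stress list, with genotype alone, with the RRTF1 term and with the length slope term, and the number tested in parentheses. Immune signalling genes stand at 3, 9 and 6, and cold and abscisic acid genes at 0 in all 3 fits. Many genes on these lists follow RRTF1 within both genotypes, so the added calls with its term were in part fixed by that.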

How the data were processed

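The authors deposited 1 table of raw counts per gene, with 36796 genes and a column for each of 8 libraries. The submitters' processing notes list the build TAIR10 and the tools HISAT2 2.2.1, SAMtools 1.17, fastp 0.23.2, limma and DESeq2, with no role. Libraries came from a directional poly(A) kit, per the labels' protocols, but no source used here names a counting program or strand option, so counts of overlapping or antisense genes and close copies (the CBF, JAZ, AOC and calmodulin genes, KIN1) are uncertain. Of the columns of values 0 were left unused. Replicates are pools of separate plants; the labels' protocol names fewer replicates per genotype than the 4 listed.

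CPM were counts over column totals. Libraries were sorted by RRTF1 within a genotype as a description. The proposed test of the 4 libraries with more RRTF1 against the other 4 was not made, since those sets were defined by a measured transcript. Genotype was tested on filtered counts (filterByExpr, TMM) with edgeR 4.0.16, R 4.3.3, 2-sided, with Benjamini-Hochberg adjustment over all genes tested and a threshold of 0.05. A further fit added log2 RRTF1, centred within each genotype. Alternatives used limma 3.58.1 and DESeq2 1.42.0. The 18 lists of 207 genes and the members were chosen with earlier results of these data known. From each list up to 4 genes with the pattern and a mean of at least 1 CPM were named by the smaller of their log2 ranges in the 2 genotypes (pseudocount 0.5), otherwise up to 2 with the highest mean; 12 genes with the pattern and 8 opposing outside the lists and list members called between genotypes were added. Names came from RefSeq TAIR10.1, which lacked 9 of the list names; those genes are given by locus. Spliced length was that of the longest annotated transcript, and the length trend was the median deviation in 20 length bins. The fit was tested on simulated data. Other promoter sequences are not reported here.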

Additional observations from a re-analysis of the deposited data

Results flagged for a closer look

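Of the genes named, 7 had 1 library far from the other 3 of its genotype by Dixon's test at the 95% level, by which chance gives about 1 such group in 20. With 90 named genes in 2 genotypes, 7 such groups are no more than that rate gives. Many of these genes were picked by how their libraries split, so the rate need not hold for them. DREB26 had 1.21 CPM in hta9 hta11 library 4, against 2.47 to 2.72 CPM in the others. CYP94B3 had 32.9 CPM in wild-type library 3, against 13.0 to 14.6 CPM in the others. GAPC1, of the reference transcripts, had 366.9 CPM in wild-type library 2, against 432.3 to 441.7 CPM in the others. PI had 0.46 CPM in wild-type library 1, against 0.148 to 0.183 CPM in the others. HSP70 had 7.9 CPM in wild-type library 4, against 3.64 to 4.14 CPM in the others. The scarce root marker PRP3 had 0.0949 CPM in hta9 hta11 library 3, against 0.0211 to 0.0274 CPM in the others. Those values rest on 3 counts against 1 count in each of the others. PHT1;1 had 0.274 CPM in hta9 hta11 library 4, against 0.156 to 0.169 CPM in the others, on 10 counts against 5 to 8.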

How the results depend on the processing

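The sorting of libraries by RRTF1 was the same with TMM-scaled CPM (4 of 4 libraries). Requiring the full order of RRTF1's 4 libraries in both genotypes left 304 genes (1.5%), and removing the length trend, which was chosen after the data were seen, left 2306, and took the genes opposing RRTF1 to 2201 (10.9%), against 4067 (20.1%) before. The count of genes changed between genotypes was 1504 in DESeq2 (850 higher, 654 lower), 1632 with the RRTF1 term (901 and 731) and 2343 with the length slope term, chosen after the data were seen (1221 and 1122). Leaving out 1 library gave 208 to 1246 changed genes, 170 to 710 higher and 38 to 536 lower. The lowest count of changed genes was without hta9 hta11 library 4 and the highest without hta9 hta11 library 1. It was 293 without hta9 hta11 library 2 and 395 to 472 without any 1 wild-type library. With the replicate block, whose numbers do not pair the samples (correlations of 0.403, 0.353, -0.275 and -0.195), 847 genes changed, and RRTF1 had a log2 fold change of -1.65. RRTF1 passed with the length slope term (-1.77), which sets apart the same libraries as RRTF1, and in no other alternative. In those other alternatives the log2 fold change of RRTF1 ran from -2.21 to -1.43. Of 45 genes, namely the named genes called with or without the RRTF1 term, RRTF1, HTA9 and HTA11, none changed direction in the 17 alternatives. Why the counts moved was not tested.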
